A study of Homo sapiens with 9 samples.

Results

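The genes described here encode the nuclear-encoded subunits of oxidative phosphorylation. They were taken from a table of read counts by symbol: rows beginning NDUFA, NDUFB, NDUFC, NDUFS, NDUFV, UQCR or ATP5, rows COX4 to COX8 followed by letters, and SDHA, SDHB, SDHC, SDHD, CYC1 and CYCS. Pseudogenes (3 rows), antisense transcripts (3 rows) and NDUFAF assembly factors (7 rows) were left out, which left 86 of 26816 genes. Of these, 37 encode subunits of complex I, 4 of complex II, 10 of complex III, 16 of complex IV and 16 of complex V (ATP synthase), 1 is cytochrome c (CYCS), and 2 carry an ATP5 symbol without being subunits (ATP5S and ATP5SL, now DMAC2L and DMAC2). Polyadenylated RNA came from OCI-Ly1, a line grown from a human germinal-centre-type diffuse large B-cell lymphoma (a fast-growing cancer of mature B cells). All cells carried an shRNA in pLKO1 and were selected with puromycin: a scrambled control (shSCR) or 1 of 2 shRNAs against KDM1A, which encodes the histone H3 lysine 4 demethylase LSD1. The LSD1 shRNAs are called sh68 and sh72, the names of their table columns, and each group had 3 libraries that the labels call biological triplicates. All libraries are of 1 cell line, so the p-values measure the spread between cultures of that line.

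Oxidative phosphorylation takes place in the inner mitochondrial membrane. Complexes I and II pass electrons from NADH and succinate to ubiquinone, complex III passes them to cytochrome c, complex IV passes them to oxygen, and complex V uses the resulting proton gradient to make ATP. Most subunits are encoded in the nucleus and a core few in mitochondrial DNA, so each complex except complex II is assembled from the products of both genomes. The transcription factors NRF1 and GABPA are known regulators of the nuclear genes, and oxidative phosphorylation is used to different degrees by different B-cell lymphomas.

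Library depth ran from 29506767 to 35270849 counted reads. Levels are given as CPM, the usual unit for a gene's counts relative to the size of its library, which was scaled by the TMM method. KDM1A stood at 119.9 to 122.8 CPM in shSCR, 23.4 to 25.8 in sh68 and 19.1 to 22.7 in sh72, so both groups carried the labelled loss. All 8 B-cell markers examined were present, with a summed level of 5470 to 5660 CPM in shSCR, 5580 to 5730 in sh68 and 3780 to 3980 in sh72, so this list was lower in sh72 (8 of 8 markers lower against shSCR, all genes 26.3%). Its part in the results below was not tested. Markers of T and natural killer cells summed to at most 2.01 CPM in any library, myeloid markers to 1.29 and erythroid markers to 0.397. Of 6 fibroblast and epithelial markers, EPCAM alone exceeded 10 CPM (15.1 to 18.1 in shSCR, 7.4 to 8.86 in sh68 and 15.5 to 16.1 in sh72).

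Promoter sequence was available from RefSeq (GRCh38.p14) for 68 of the 86 genes. The 250 bases upstream of each start were searched on both strands for the NRF1 core GCGCATGCG, the GABPA (ETS) core CCGGAAGT, the YY1 site AAGATGGCG and the ESRRA site TCAAGGTCA. The NRF1 core was present in 9 of 65 promoters of members that were tested for expression (13.8%), in 3.14% of the promoters of all genes tested and in 1.78% of all promoters. The GABPA core was present in 9 of 65 (13.8%), in 6.92% of all genes tested and in 3.64% of all promoters. The YY1 site was in 1 of 65 (ATP5J), in 1.06% of all genes tested and in 0.641% of all promoters, and the ESRRA site in 0 of 65, 0.215% and 0.319%. SDHD held both the NRF1 and the GABPA core. 3 stretches are shown because they stand for the kinds of promoter in the set: one with the NRF1 core, one with the GABPA core and one with neither. Capitals mark the core, and only bases outside annotated exons are printed.
NDUFB4 (chr3:120596136-120596308, + strand): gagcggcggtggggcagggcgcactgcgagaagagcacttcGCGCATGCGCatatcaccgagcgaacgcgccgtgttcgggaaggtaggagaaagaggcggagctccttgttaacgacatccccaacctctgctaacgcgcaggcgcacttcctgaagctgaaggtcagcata
COX5B (chr2:97645862-97646039, + strand): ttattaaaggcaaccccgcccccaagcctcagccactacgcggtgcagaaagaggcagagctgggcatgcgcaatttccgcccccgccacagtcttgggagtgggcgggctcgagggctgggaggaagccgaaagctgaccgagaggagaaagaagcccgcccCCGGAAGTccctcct
NDUFA4L2 (chr12:57240763-57240962, - strand): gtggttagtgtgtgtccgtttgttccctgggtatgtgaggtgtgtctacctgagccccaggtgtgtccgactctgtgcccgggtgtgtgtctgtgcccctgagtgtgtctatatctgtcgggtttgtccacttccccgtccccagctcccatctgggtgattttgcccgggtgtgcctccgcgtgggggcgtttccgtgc
In NDUFB4 the NRF1 core lies 159 to 151 bases upstream of the start and, being nearly a palindrome, is also read on the other strand from 158 to 150. In COX5B the GABPA core lies 37 to 30 bases upstream. A match here is a description of letters in a window and says nothing of binding.

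Of the 86 genes, 80 had enough reads to be tested, and 6 did not. NDUFA3 and NDUFA6, accessory subunits of complex I, had 0 to 2 and 0 to 1 reads in a library, although both are known as parts of complex I in every tissue. The cause was not tested, and no level is read from them. The tissue isoforms COX4I2 (lung and hypoxic cells), COX6B2 (testis) and COX7A1 (heart and muscle) had at most 11 reads in any library, as had ATP5L2, a near copy of the g subunit. The tested members were abundant transcripts, with a median of 88.3 CPM in shSCR, higher than that of all 15725 genes tested. Per length of transcript, ATP5B, the catalytic beta subunit of ATP synthase, was the highest at 934 ± 13.3 TPM (SD, n = 3; TPM is a share of transcripts corrected for their length), followed by the complex IV subunits COX4I1 (854 ± 8.06) and COX7C (785 ± 9.68). These levels in shSCR rest on the transcript length chosen from the annotation. They are shares over the 19392 genes with a length, which leave out the subunits encoded in mitochondrial DNA.

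More members fell than rose with sh68, and more rose than fell with sh72. With sh68, 39 of 80 fell and 3 rose against shSCR (48.8% and 3.75%), where 28.1% of all genes tested fell and 27.4% rose. With sh72, 29 rose and 9 fell (36.2% and 11.2%), where 24.7% of all genes rose and 26.3% fell. Compared directly, 58 of 80 were higher and 8 lower in sh72 than in sh68 (72.5% and 10.0%), against 27.2% and 29.0% of all genes. A gene is called changed at an adjusted p below 0.05 in edgeR's quasi-likelihood test with Benjamini-Hochberg adjustment over all genes. In either direction, 52.5% of members passed with sh68 (all genes 55.5%), 47.5% with sh72 (51.0%) and 82.5% between the shRNAs (56.2%). The comparisons with shSCR use the same 3 control libraries. The direct comparison does not contrast them, but all 9 libraries share 1 fit, so the controls enter its filter, scaling and estimate of spread. In RNA from whole cultures, a change in RNA per cell and a change in the share of cells of one kind cannot be told apart.

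Changes of single members were small. The median log2 fold change of the members was -0.13 with sh68 (all genes -0.008), 0.08 with sh72 (all genes -0.01) and 0.22 for sh72 minus sh68 (all genes -0.01), a 1.17-fold difference. Single members ranged from 0.563-fold to 1.17-fold with sh68 and from 0.616-fold to 1.28-fold with sh72. On the mean of both LSD1 shRNAs, 12 rose, 19 fell and 49 did not pass (all genes 24.9% and 27.5%), and the median was -0.02. In either direction that is 38.8% of members against 52.3% of all genes. These counts moved with the setting: 21 rose and 14 fell with library size alone in place of TMM scaling (median 0.01), 33 fell with offsets for length and GC content, 7 rose without shSCR replicate 2, and 19 rose without sh72 replicate 3. In edgeR's test against a minimum of 1.2-fold, 5 members (6.25%) were lower and 0 higher with sh68, where 9.25% of all genes were lower and 15.3% higher. With sh72, 2 of 80 were higher and 3 lower (3.75%), where 10.2% of all genes were higher and 11.1% lower. Between the shRNAs, 13 were higher in sh72 (16.2%) and 0 lower, where 10.0% of all genes were higher and 15.9% lower. On the mean of both, 0 were higher and 3 lower (3.75%), where 10.9% of all genes were higher and 7.87% lower. Each count of 0 at this threshold was also 0 at an unadjusted p below 0.05.

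**Figure D1:**
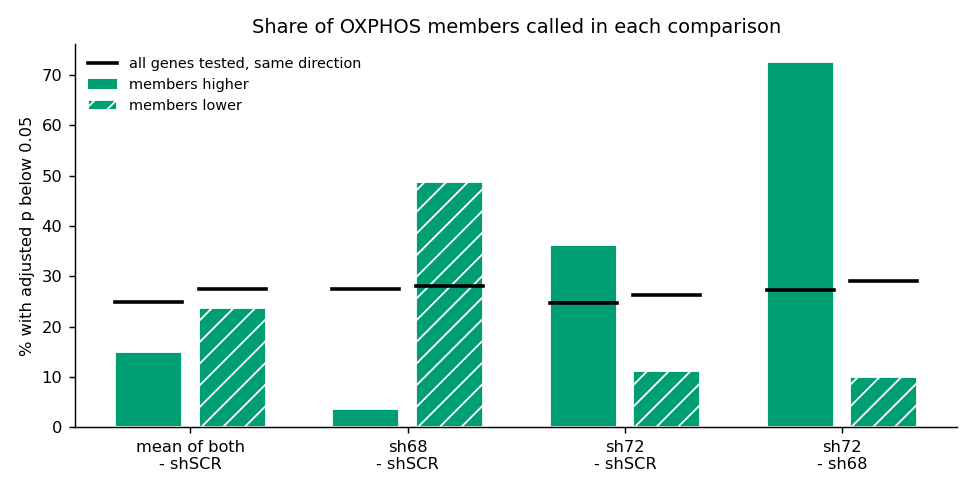
Share of the 80 tested members with an adjusted p below 0.05 in each comparison (plain bars higher, hatched bars lower) beside the share of all 15725 genes tested in the same direction (black lines). The bars leave the lines most for sh72 minus sh68, where 72.5% of members were higher.

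Separation between libraries was counted as well. All 3 sh68 libraries lay below all 3 shSCR libraries for 45 members and above them for 5 (all genes 31.9% and 30.6%). All 3 sh72 libraries lay above shSCR for 28 members and below for 9 (all genes 27.4% and 29.1%). All 3 sh72 libraries lay above all 3 sh68 libraries for 52 members and below for 7 (all genes 29.6% and 31.1%).

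Libraries of one group also differed from each other across many members at once. In sh68, replicate 2 had the highest CPM of the 3 for 70 of 80 members (87.5%), against 34.0% of all genes. In sh72, replicate 1 was the highest for 64 members (80.0%, all genes 37.0%) and replicate 3 the lowest for 66 (82.5%, all genes 34.5%). In shSCR, replicate 1 was the highest for 43 members (53.8%, all genes 32.3%). The number of members that rose with sh72 was 42 without sh72 replicate 3 and 20 without sh72 replicate 1, against 29 with all libraries. The number lower in sh72 than in sh68 was 4 rather than 8 without sh72 replicate 3, and also 4 without sh68 replicate 2.

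**Figure D2:**
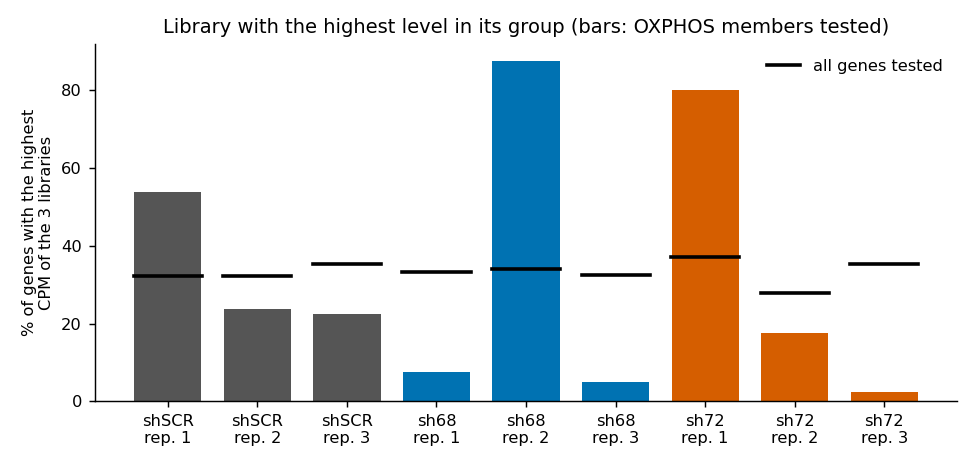
For each library, the share of the 80 tested members (bars) and of all genes tested (black lines) with the highest CPM of the 3 libraries of the group. Replicate 2 of sh68 and replicate 1 of sh72 held most members, at 87.5% and 80.0%.

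Summed over all 86 genes, the level was 9170, 9110 and 8943 CPM with the scrambled shRNA, 8105, 8599 and 8220 with sh68, and 9977, 9526 and 9099 with sh72. All sh68 libraries were below the others. In sh72, replicates 1 and 2 lay above shSCR and replicate 3 lay within its range. The means were 9074 ± 117 (SD, n = 3), 8308 ± 259 and 9534 ± 439 CPM, a change of -8.44% with sh68 and 5.07% with sh72, with no test. By complex, the change with sh68 was -7.52% for complex I, -7.16% for II, -10.9% for III, -9.69% for IV and -7.59% for V. With sh72 it was 7.81% for complex I and 7.64% for V, but 1.57% for III, -1.21% for IV (above shSCR with library size alone, at 1681 against 1656 CPM) and -3.27% for II, where the libraries overlapped with shSCR.

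**Figure D3:**
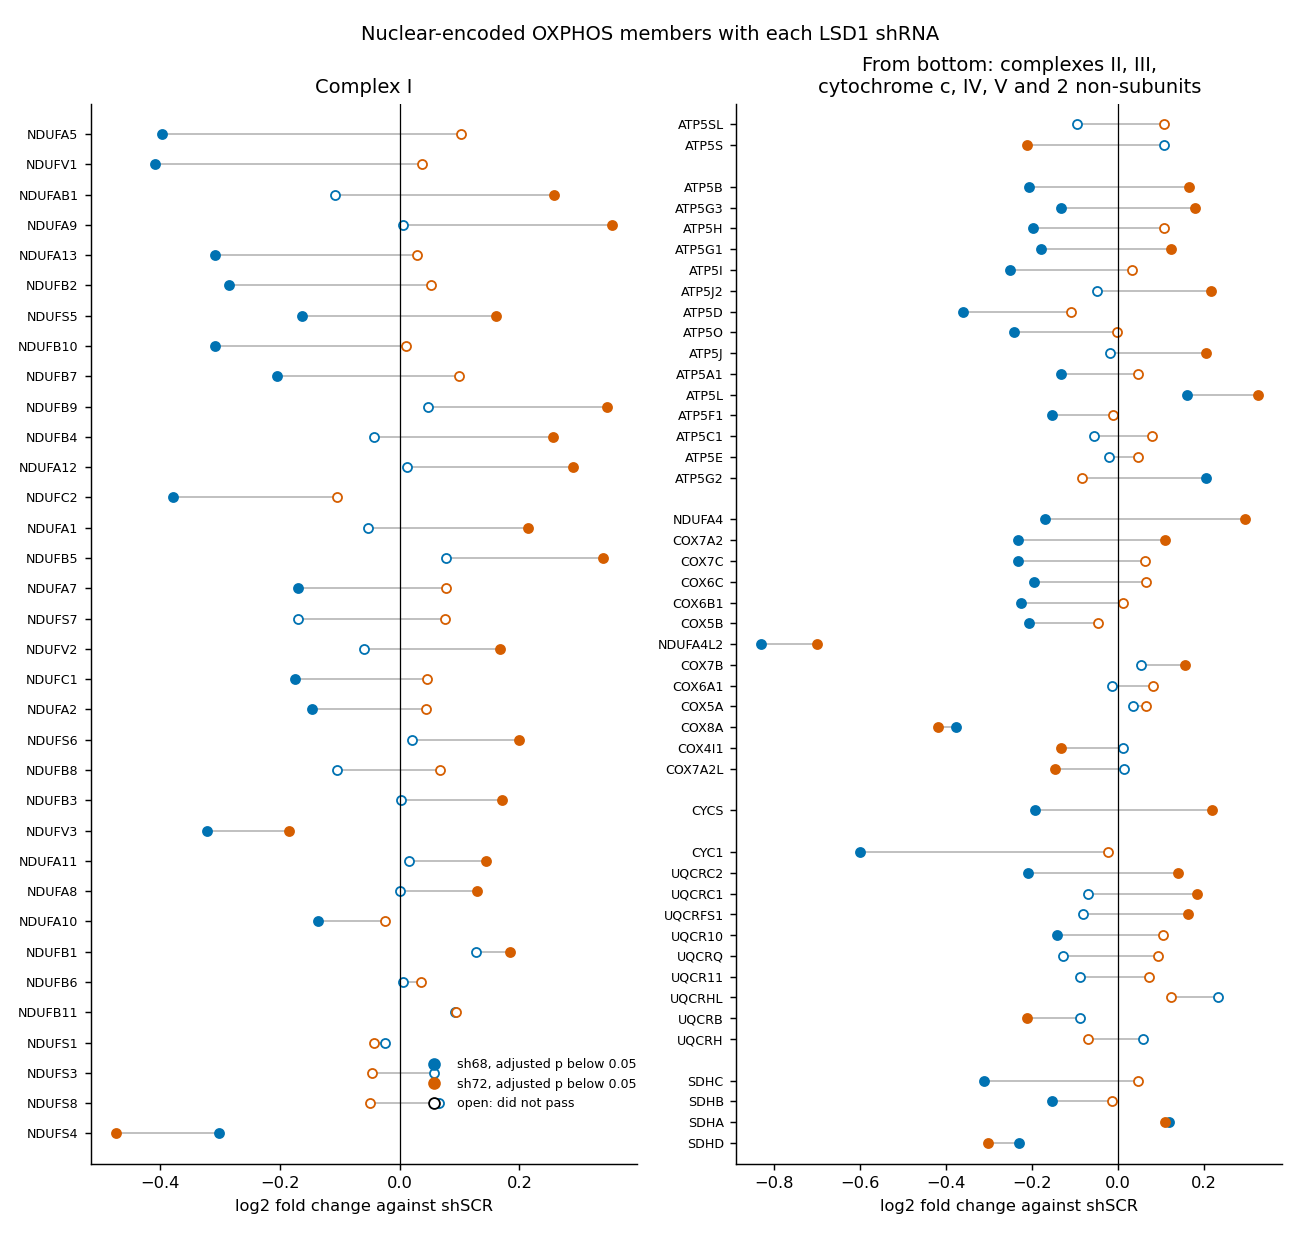
Log2 fold change against shSCR of tested members with sh68 (blue) and sh72 (orange), joined by a line, ordered within each complex by the difference between the shRNAs. Filled points passed an adjusted p of 0.05. Most orange points lie to the right of the blue ones, and the exceptions include NDUFS4, SDHD, COX8A and ATP5G2.

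In complex I, 15 of 35 tested subunits fell with sh68 and the other 20 did not pass, while 15 rose and 2 fell with sh72, and 27 were higher and 2 lower in sh72 than in sh68. Of all genes tested, 28.1% fell with sh68, 24.7% rose and 26.3% fell with sh72, and 27.2% were higher and 29.0% lower in sh72 than in sh68. By arm, 7 of 15 subunits of the peripheral arm and 8 of 19 of the membrane arm fell with sh68, and 10 and 16 were higher in sh72 than in sh68. Of the 7 core subunits in the table, which carry out electron transfer, 2 fell with sh68, 2 rose with sh72 and 4 were higher in sh72 than in sh68. The core counts that fell with sh68 and rose with sh72 were near the shares of all genes. NDUFS1, the large iron-sulfur core subunit, passed in no comparison, at 173.5, 179.4 and 174.3 CPM in shSCR, 170.9, 172.9 and 174.1 with sh68 and 172.1, 174.4 and 165.0 with sh72.

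NDUFV1, which binds the flavin that accepts electrons from NADH, stood at 204.1, 203.1 and 189.7 CPM in shSCR, 150.0, 151.5 and 148.3 with sh68, and 219.4, 201.3 and 191.9 with sh72. The sh68 libraries were all lower than the rest, and sh72 overlapped with shSCR. It fell by 0.41 ± 0.044 on the log2 scale with sh68 (SE, edgeR adjusted p = 3.62e-08), and the sh72 minus sh68 difference was 0.45 ± 0.044 (edgeR adjusted p = 7.21e-09).

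Among the accessory subunits, NDUFA5 of the peripheral arm showed the largest difference between the shRNAs in complex I. It read 73.9, 84.3 and 79.8 CPM in shSCR, 56.4, 62.0 and 62.3 with sh68, and 87.0, 84.1 and 84.5 with sh72. All sh68 libraries were below the others (-0.40 ± 0.05), and sh72 exceeded sh68 by 0.50 ± 0.05 (edgeR adjusted p = 8.28e-09). NDUFS5, a membrane arm subunit, fell with sh68 (-0.16 ± 0.058) and rose with sh72 (0.16 ± 0.058), but sh72 replicate 3 (89.8 CPM) lay inside the shSCR range of 86.5 to 91.3. Both calls were lost in some fits without 1 library, the sh72 call without shSCR replicate 3 or sh72 replicate 1, and the sh68 call without shSCR replicate 1 or 2 or sh68 replicate 1 or 3. The largest rises with sh72 were in NDUFA9 (0.36 ± 0.048), NDUFB9 (0.35 ± 0.041) and NDUFB5 (0.34 ± 0.043), whose sh68 values were 0.005, 0.05 and 0.08 and did not pass. NDUFB4, whose promoter with the NRF1 core is shown above, read 62.5, 61.2 and 60.5 CPM in shSCR, 56.8, 62.4 and 59.65 with sh68, and 74.7, 75.4 and 70.0 with sh72. Its sh72 libraries were above all others (0.26 ± 0.046 against shSCR and 0.30 ± 0.046 against sh68).

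NDUFS4, an accessory subunit that joins late in assembly, fell with both LSD1 shRNAs. It read 20.9, 21.8 and 19.96 CPM in shSCR, 16.6, 18.4 and 15.8 with sh68, and 14.6, 15.8 and 14.8 with sh72. Both LSD1 shRNA groups were below all controls, with log2 changes of -0.30 ± 0.068 and -0.47 ± 0.069 (edgeR adjusted p = 0.000576 and 3.91e-06). The difference between the shRNAs passed with all libraries (-0.17 ± 0.07) but in only 3 of 9 fits that left out 1 library (it was lost without replicate 1 or 2 of shSCR or of sh68, and without replicate 1 or 3 of sh72). NDUFV3, a small accessory subunit, read 34.2 to 36.5 CPM in shSCR, 25.5 to 30.8 in sh68 and 29.9 to 32.4 in sh72, and fell with sh68 (-0.32 ± 0.061) and with sh72 (-0.19 ± 0.061). The sh72 call was lost without shSCR replicate 3 or without sh72 replicate 2 or 3.

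Complex II, the only complex wholly encoded in the nucleus and also an enzyme of the citric acid cycle, had 1 subunit that rose with sh68 and 3 that fell (all genes 27.4% and 28.1%). SDHA, the flavoprotein that oxidises succinate, read 105.9, 100.6 and 98.6 CPM in shSCR, 113.8, 106.3 and 111.6 with sh68, and 116.3, 106.5 and 106.5 with sh72. Both LSD1 shRNA groups were above all controls by a narrow margin (0.12 ± 0.044 and 0.11 ± 0.044, edgeR adjusted p = 0.0249 and 0.0426). Each of these calls was lost without shSCR replicate 2 or 3, the sh68 call also without sh68 replicate 1 or 3, and the sh72 call without sh72 replicate 1. SDHA has near copies in the genome, and the pseudogene SDHAP3 had 22.3, 16.6 and 14.9 CPM on average in shSCR, sh68 and sh72, so the split of reads between them is uncertain.

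The other 3 subunits fell with sh68. SDHC, a membrane anchor, read 48.8, 49.4 and 51.1 CPM in shSCR, 39.6, 41.8 and 39.0 with sh68, and 54.4, 51.1 and 48.8 with sh72. It was lower in every sh68 library (-0.31 ± 0.051), and sh72 was 0.36 ± 0.05 above sh68. SDHB, which holds the iron-sulfur clusters, was 71.3 ± 2.75 CPM in shSCR, 64.1 ± 2.21 in sh68 and 70.6 ± 4.28 in sh72 (SD, n = 3), with -0.15 ± 0.049 with sh68 and 0.14 ± 0.049 between the shRNAs. Its calls were lost without sh68 replicate 3 and, for sh68 against shSCR, without shSCR replicate 1, and for sh72 against sh68, without sh72 replicate 1. SDHD, the other anchor, read 101.2, 105.5 and 106.6 CPM in shSCR, 84.2, 93.9 and 88.95 with sh68, and 87.3, 80.0 and 87.1 with sh72, so that both LSD1 shRNA groups were below the controls (-0.23 ± 0.046 and -0.30 ± 0.046). Its exons overlap those of TIMM8B, which rose with sh72 (0.37 ± 0.054).

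In complex III, 3 of 10 tested members fell with sh68 (all genes 28.1%), and 3 rose and 1 fell with sh72 (24.7% and 26.3%). The counts that fell with sh68 and rose with sh72 were thus near the shares of all genes. Between the shRNAs, 7 were higher and 2 lower in sh72 than in sh68 (all genes 27.2% and 29.0%). CYC1, cytochrome c1, held the largest difference between the shRNAs of all 80 members. It read 212.9, 213.1 and 201.6 CPM in shSCR, 133.9, 145.4 and 135.0 with sh68, and 214.6, 207.3 and 195.2 with sh72. The sh68 libraries stood far below the rest, at 0.66-fold of shSCR (-0.60 ± 0.043, edgeR adjusted p = 2.71e-11), and sh72 overlapped with shSCR (-0.02 ± 0.042, edgeR adjusted p = 0.662). UQCRC2, a core protein that faces the matrix, read 183.7, 180.2 and 187.3 CPM in shSCR, 159.5, 157.0 and 159.9 with sh68, and 200.3, 204.8 and 202.4 with sh72, with no overlap between groups. It fell with sh68 (-0.21 ± 0.035) and rose with sh72 (0.14 ± 0.035). Its partner UQCRC1 rose with sh72 (0.18 ± 0.044), with -0.07 ± 0.044 in sh68. UQCRH, the hinge protein, was lower in sh72 than in sh68 (-0.13 ± 0.042), a call lost without sh68 replicate 2 or sh72 replicate 3. Its near copy UQCRHL had 2.97 ± 0.463 CPM in shSCR (SD, n = 3) and passed in no comparison, and reads may be split between the 2.

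Cytochrome c (CYCS), the carrier between complexes III and IV that also starts apoptosis once it leaves the mitochondrion, read 236.0, 248.6 and 235.1 CPM in shSCR, 198.3, 217.7 and 214.0 with sh68, and 306.2, 261.3 and 269.4 with sh72. The 3 groups did not overlap, and sh72 replicate 1 stood above the other sh72 libraries. CYCS fell with sh68 (-0.19 ± 0.049, edgeR adjusted p = 0.00192) and rose with sh72 (0.22 ± 0.049, edgeR adjusted p = 0.000628), and the difference of 0.41 ± 0.049 is 1.33-fold. These calls held in each fit without 1 library.

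**Figure D4:**
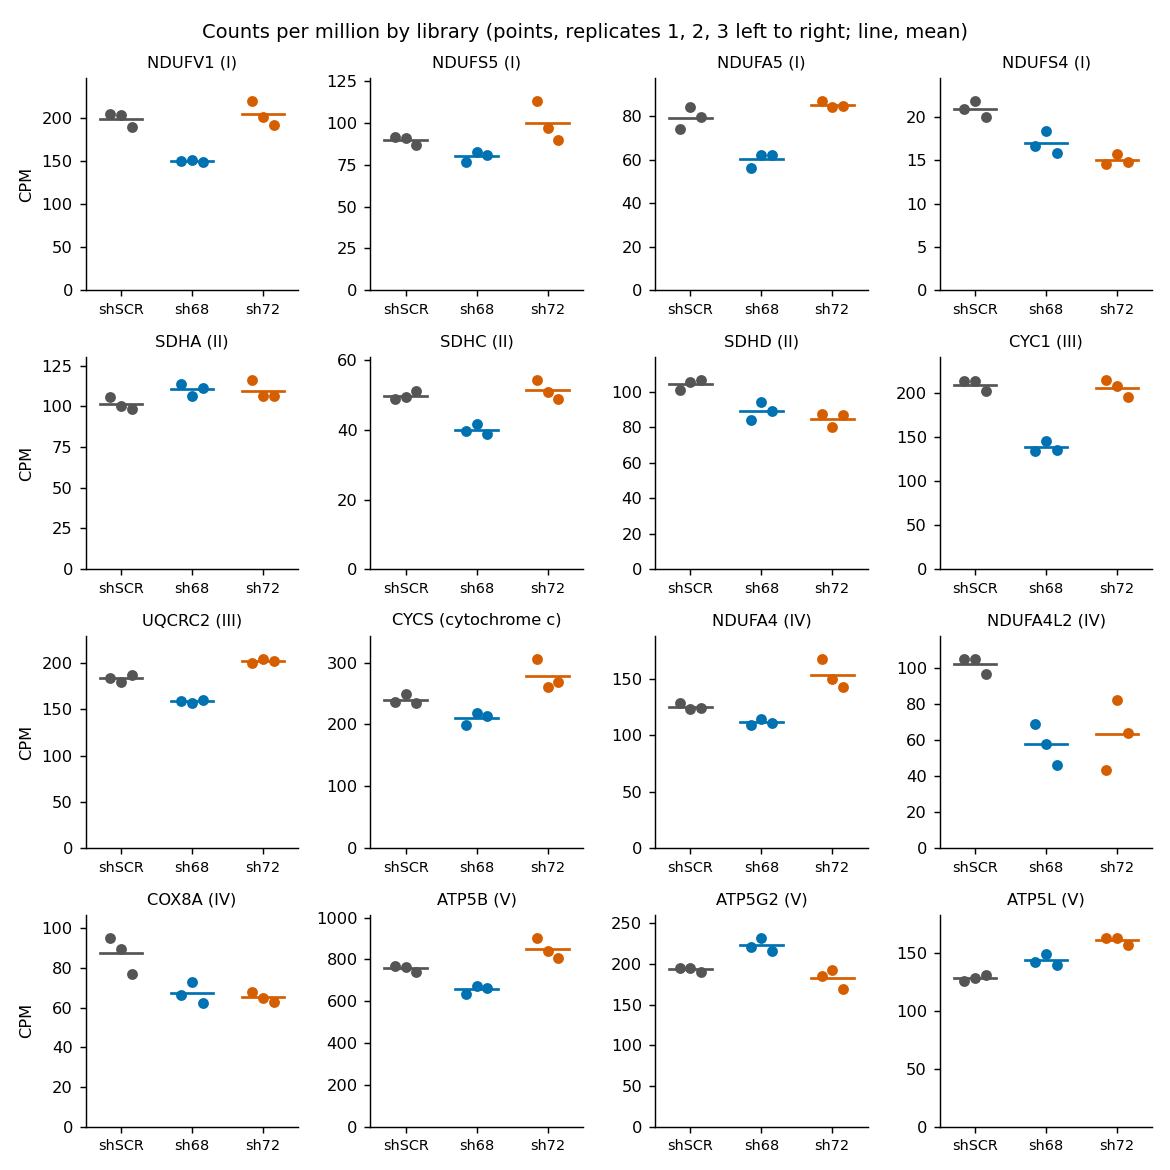
CPM of 16 members in each of the 9 libraries (points, replicates 1 to 3 from left to right) with the group mean (line), axes from 0, and the complex in parentheses. CYC1 is lowest in the 3 sh68 libraries, SDHD, COX8A, NDUFS4 and NDUFA4L2 are low with both LSD1 shRNAs, and ATP5G2 is highest in sh68.

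In complex IV, 8 of 13 tested members fell with sh68 (all genes 28.1%) and the other 5 did not pass, while with sh72 3 rose and 4 fell (all genes 24.7% and 26.3%). NDUFA4, first assigned to complex I and now counted with complex IV, read 128.4, 123.5 and 124.4 CPM in shSCR, 109.3, 114.6 and 110.9 with sh68, and 168.1, 150.6 and 143.2 with sh72. Each group was separate: it fell with sh68 (-0.17 ± 0.047) and rose with sh72 (0.30 ± 0.047), and the difference was 0.47 ± 0.047 (edgeR adjusted p = 1.01e-08). COX7A2 read 93.7 to 95.2 CPM in shSCR, 77.0 to 82.5 in sh68 and 97.3 to 107 in sh72 (-0.23 ± 0.043 and 0.11 ± 0.043), and the sh72 call was lost without shSCR replicate 3 or sh72 replicate 1. COX7C was lower in sh68 (-0.23 ± 0.047), as was COX6B1, the subunit that faces cytochrome c (-0.23 ± 0.045), while their sh72 values were 0.06 ± 0.047 and 0.01 ± 0.045. COX7B rose with sh72 (0.16 ± 0.04), with 0.05 ± 0.04 in sh68. Its difference between the shRNAs passed (0.10 ± 0.04) but was lost without sh68 replicate 1 or 3 or sh72 replicate 1 or 2. COX5B, whose promoter with the GABPA core is shown above, fell with sh68 (-0.21 ± 0.05), and its sh72 value was -0.05 ± 0.049. COX6A1, the form found outside muscle, passed in no comparison.

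NDUFA4L2, the paralog of NDUFA4 that hypoxia is known to induce and whose promoter held none of the motifs searched, was the most reduced member. It read 105.3, 105.3 and 96.9 CPM in shSCR, 69.0, 57.9 and 46.4 with sh68, and 43.4, 82.5 and 63.7 with sh72. All 6 LSD1 shRNA libraries were below all controls, but they spread widely, with SDs of 11.3 and 19.6 against 4.86 in shSCR. It fell with sh68 (-0.83 ± 0.13, edgeR adjusted p = 1.34e-05) and sh72 (-0.70 ± 0.13, edgeR adjusted p = 0.000115). Its exons overlap those of SHMT2, which at 740, 429 and 649 CPM on average fell by 0.79 ± 0.036 on the log2 scale with sh68 and 0.19 ± 0.036 with sh72, and the 2 cannot be fully told apart without the strand of the reads. COX8A, the smallest subunit, read 95.3, 89.9 and 76.9 CPM in shSCR, 66.7, 73.0 and 62.2 with sh68, and 68.1, 65.1 and 62.8 with sh72. Both LSD1 shRNA groups were below all controls, although shSCR replicate 3 was close to them (-0.38 ± 0.063 and -0.42 ± 0.063).

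The ubiquitous isoform COX4I1, the largest nuclear-encoded subunit, fell with sh72. It read 268.3, 270.4 and 269.8 CPM in shSCR, 264.7, 280.4 and 269.6 with sh68, and 243.2, 254.5 and 240.8 with sh72, with changes of 0.01 ± 0.036 with sh68 and -0.13 ± 0.036 with sh72. That call was lost without sh72 replicate 3 (edgeR adjusted p = 0.0518). COX7A2L, which joins complexes III and IV in supercomplexes, read 107 to 116 CPM in shSCR, 109 to 120 in sh68 and 100.1 to 103 in sh72. It fell with sh72 (-0.15 ± 0.044), a call lost without shSCR replicate 2.

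In complex V, 9 of 15 tested members fell and 2 rose with sh68 (all genes 28.1% and 27.4%). With sh72 6 rose (all genes 24.7%) and the other 9 did not pass, and 13 were higher and 1 lower in sh72 than in sh68 (27.2% and 29.0%). ATP5B, the catalytic beta subunit, read 768.0, 765.0 and 738.4 CPM in shSCR, 633.5, 673.2 and 661.8 with sh68, and 903.6, 838.7 and 806.4 with sh72. The groups did not overlap: it fell with sh68 (-0.21 ± 0.041) and rose with sh72 (0.17 ± 0.041), and sh72 exceeded sh68 by 0.37 ± 0.041 (edgeR adjusted p = 3.43e-08). ATP5H, the d subunit of the peripheral stalk, fell with sh68 (-0.20 ± 0.05) and was 0.31 ± 0.049 higher in sh72 than in sh68.

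The c ring, the rotor turned by protons, is built from 1 protein encoded by 3 genes, of which 2 fell and 1 rose with sh68. ATP5G3 was the most abundant of them per length in shSCR, at 691 ± 15.9 TPM (SD, n = 3) against 289 ± 9.98 for ATP5G1 and 245 ± 2.15 for ATP5G2. ATP5G3 read 262.8, 252.6 and 253.5 CPM in shSCR, 225.8, 245.2 and 230.0 with sh68, and 308.9, 280.4 and 281.1 with sh72, without overlap (-0.13 ± 0.042 and 0.18 ± 0.042). ATP5G1 fell with sh68 (-0.18 ± 0.046) and rose with sh72 (0.12 ± 0.046), where sh72 replicate 3 (78.4 CPM) lay within the shSCR range of 74.4 to 79.2. ATP5G2 read 195.4, 194.8 and 189.8 CPM in shSCR, 220.4, 232.1 and 215.6 with sh68, and 185.4, 192.8 and 169.5 with sh72. It was above all controls in every sh68 library (0.20 ± 0.043, edgeR adjusted p = 0.000307) and lower in sh72 than in sh68 (-0.29 ± 0.043, edgeR adjusted p = 4.41e-06). The sh68 call of ATP5G3 was lost without shSCR replicate 1, sh68 replicate 1 or sh68 replicate 3, and the sh72 call of ATP5G1 without shSCR replicate 2 or 3 or sh72 replicate 1. ATP5L, the g subunit of the membrane part, read 126.0, 128.8 and 131.3 CPM in shSCR, 142.3, 149.5 and 139.6 with sh68, and 163.3, 163.4 and 156.9 with sh72. It was higher with sh68 (0.16 ± 0.039) and with sh72 (0.33 ± 0.039), and higher in sh72 than in sh68 (0.17 ± 0.038), with no overlap between any of the groups.

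Subunits encoded in mitochondrial DNA were counted in the same libraries. Of 13, 3 rose and 2 fell with sh68 (all genes 27.4% and 28.1%), and 4 rose and 6 fell with sh72 (24.7% and 26.3%). In the direct comparison 1 was higher and 7 lower in sh72 than in sh68 (27.2% and 29.0%). The 3 subunits of complex IV in mitochondrial DNA summed to 22480, 22790 and 22680 CPM in shSCR, 21920, 23070 and 22210 with sh68, and 17370, 16350 and 16440 with sh72. All sh72 libraries were well below the rest, a change of -26.2%, where the nuclear-encoded members of complex IV changed by -1.21%. COX1, which holds the site where oxygen is reduced, fell with sh68 (-0.09 ± 0.036) and sh72 (-0.47 ± 0.036), and COX2, which receives electrons from cytochrome c, fell with sh72 (-0.48 ± 0.043). CYTB of complex III fell with sh72 (-0.29 ± 0.04), and ND1 of complex I rose with sh68 (0.40 ± 0.044) and with sh72 (0.43 ± 0.044). The 7 subunits of complex I in mitochondrial DNA summed to 18900, 19040 and 19890 CPM in shSCR and 21180, 19420 and 20450 in sh72. These libraries overlapped, with a mean 5.57% higher in sh72 and 3.35% higher in sh68 than in shSCR. The 2 subunits of complex V summed to 3429 ± 276 CPM in sh72 against 4131 ± 152 in shSCR (SD, n = 3). The nuclear-encoded members of complexes I and V summed to 7.81% and 7.64% more in sh72 than in shSCR. Mitochondrial transcripts were measured in RNA selected for poly(A) tails, and the part of tail length in these levels was not tested.

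**Figure D5:**
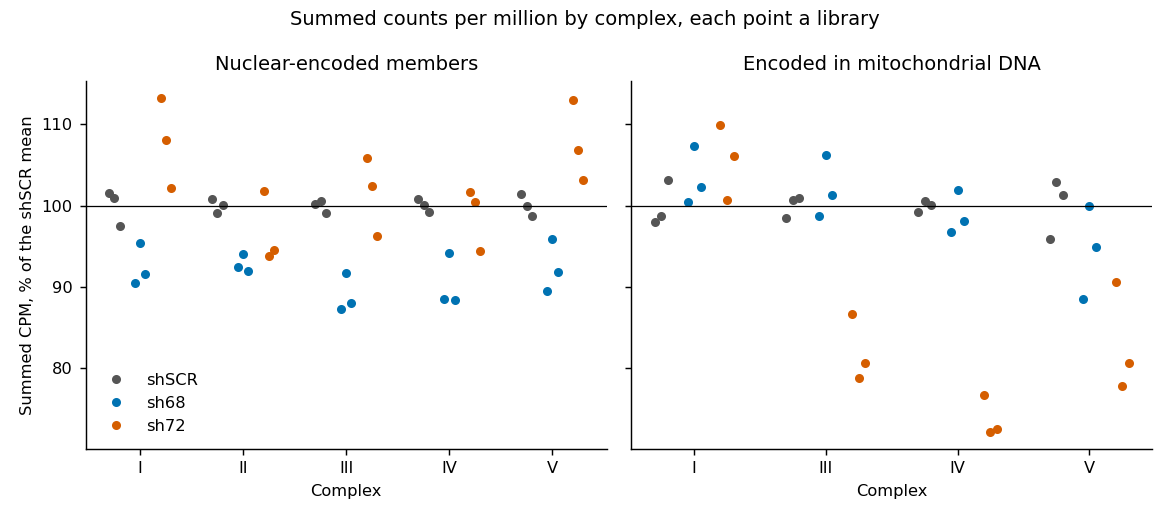
Summed CPM by complex in each library as a percentage of the shSCR mean, for nuclear-encoded members (left) and subunits encoded in mitochondrial DNA (right). In sh72 the nuclear-encoded sums of complexes I and V lie above 100% while the mitochondrially encoded sums of complexes III, IV and V lie below it. The axis does not start at 0.

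Among subunits of ATP synthase and its inhibitor whose symbols fall outside the rule, USMG5 fell with sh68 (-0.34 ± 0.054) and rose with sh72 (0.25 ± 0.053), and C14orf2 passed in no comparison. ATPIF1, which inhibits ATP hydrolysis by the enzyme, read 160.0 to 175.4 CPM in shSCR, 195.4 to 199.0 in sh68 and 249.8 to 299.5 in sh72, and rose with sh68 (0.24 ± 0.05) and sh72 (0.70 ± 0.05). Assembly factors, which build the complexes without staying in them, were counted likewise. Of 57 tested, 9 rose and 20 fell with sh68 (all genes 27.4% and 28.1%), and 27 rose and 3 fell with sh72 (24.7% and 26.3%). Between the shRNAs, 40 were higher and 4 lower in sh72 than in sh68 (27.2% and 29.0% of all genes), with a median of 0.22. On the mean of both shRNAs, the largest changes of their lists were in ATPAF2 (-0.388, ATP synthase), TTC19 (-0.335) and LYRM7 (0.33, both complex III), and NDUFAF6 (0.346, complex I). Each passed in the same direction with both shRNAs. With sh68 and sh72, ATPAF2 changed by -0.491 ± 0.049 and -0.285 ± 0.049, and TTC19 by -0.53 ± 0.053 and -0.14 ± 0.053. LYRM7 changed by 0.14 ± 0.043 and 0.52 ± 0.043, and NDUFAF6 by 0.24 ± 0.04 and 0.45 ± 0.04. Of 18 genes of pyruvate dehydrogenase and the citric acid cycle, 3 rose and 10 fell with sh68 (all genes 27.4% and 28.1%). With sh72 9 rose and 3 fell (24.7% and 26.3%), and 14 were higher and 2 lower in sh72 than in sh68 (27.2% and 29.0%). The 3 ADP/ATP and phosphate carriers did not share 1 pattern. SLC25A4, an ADP/ATP carrier, fell with sh68 (-0.14 ± 0.046) and rose with sh72 (0.56 ± 0.045). SLC25A5, a more abundant ADP/ATP carrier, rose with sh68 (0.16 ± 0.04) and did not pass with sh72 (0.055 ± 0.04). The phosphate carrier SLC25A3 rose with both (0.12 ± 0.037 and 0.14 ± 0.037). IDH2, the mitochondrial isocitrate dehydrogenase that uses NADP, rose with sh68 (0.46 ± 0.04) and sh72 (0.35 ± 0.04).

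Of 9 tested regulators of these genes, 6 fell on the mean of both LSD1 shRNAs (all genes 27.5%) and the other 3 did not pass. With sh68 6 fell (all genes 28.1%) and 3 did not pass, and with sh72 2 rose and 5 fell (all genes 24.7% and 26.3%). ESRRA, an orphan nuclear receptor that works with PGC-1 coactivators, read 66.6, 69.2 and 65.5 CPM in shSCR, 53.0, 51.3 and 51.3 with sh68, and 37.4, 33.3 and 30.6 with sh72. It was lowest in sh72 (-0.99 ± 0.057, against -0.37 ± 0.054 with sh68). NRF1 fell with sh68 (-0.17 ± 0.055) and sh72 (-0.27 ± 0.056), PPARGC1B, a PGC-1 coactivator, fell with both (-0.53 ± 0.048 and -0.24 ± 0.047), and PPRC1 fell with sh68 (-0.28 ± 0.043). PPARA, a nuclear receptor of fatty acid oxidation, fell with both (-0.67 ± 0.052 and -0.75 ± 0.053). GABPA fell with sh72 (-0.16 ± 0.047), and GABPB2, which encodes a beta partner of GABPA, fell with sh68 (-0.26 ± 0.091) and rose with sh72 (0.54 ± 0.086). GABPB1, which encodes another beta partner, did not pass with sh68 (-0.083 ± 0.049) and rose with sh72 (0.175 ± 0.049). In shSCR GABPB1 averaged 41.3 CPM and GABPB2 9.66 CPM. YY1 passed in no comparison (0.01 ± 0.039 and -0.066 ± 0.039). PPARGC1A was near 0 in every group. TFAM, which packages mitochondrial DNA and takes part in its transcription, passed in no comparison (-0.001 ± 0.041 and 0.04 ± 0.041). The mitochondrial RNA polymerase POLRMT fell with sh68 (-0.25 ± 0.064) and sh72 (-0.19 ± 0.064). Of 12 tested genes of mitochondrial DNA transcription and maintenance, 1 rose and 3 fell with sh68 (all genes 27.4% and 28.1%). With sh72 4 of the 12 rose and 2 fell (24.7% and 26.3%). The 2 that fell with sh72 were POLRMT and POLG2 (-0.39 ± 0.066), and POLG2 did not pass with sh68 (-0.146 ± 0.064).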

How the data were processed

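The authors deposited whole-number counts per gene symbol, not normalized. Tools named in the submitters' processing notes are featureCounts 1.5.2, STAR 2.5.2 and CASAVA 1.8.2, with the build hg38. Strand setting and annotation: not given in the sources used here. Without them, reads of overlapping genes may be mixed, and exons of 39 of the 86 members overlap another gene. Counts of 9 libraries (29506767 to 35270849 reads) were fitted together with edgeR 4.0.16 (filterByExpr, TMM, quasi-likelihood F test, a term for each of shSCR, sh68 and sh72), and p-values were adjusted over 15725 genes. SE is the log2 fold change over the square root of F. The script was tested on simulated data. Members, gene lists and tests were chosen with earlier results of these data known. Members named with values were those with the largest changes shared by both shRNAs or differing between them (up to 3 a complex), those called in opposite directions, isoforms and SDH subunits; up to 3 genes a list were named likewise. 1 member that this rule names is counted but not reported here. NDUFA9, NDUFB9, NDUFB5, NDUFS1, NDUFB4, COX5B, CYTB, USMG5, C14orf2, GABPB1, GABPB2 and YY1 were named after their values were seen. Promoters are from RefSeq GRCh38.p14, lengths from GENCODE. The titles number the LSD1 shRNAs without tying them to sh68 or sh72. Other settings tried were DESeq2 1.42.0, limma-voom (limma 3.58.1), RLE scaling, no scaling beyond library size, all genes kept, offsets for length and GC, the replicate number as a block, a threshold of 1.2-fold and fits without each library in turn.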

Additional observations from a re-analysis of the deposited data

Results flagged for a closer look

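For the members named, the effects of sh68 and sh72 against the same controls were compared directly, and those below differed by edgeR's quasi-likelihood test with adjustment over all genes. As sh72 minus sh68 on the log2 scale, the complex I values were 0.50 for NDUFA5, 0.45 for NDUFV1, 0.32 for NDUFS5 and -0.17 for NDUFS4 (kept in only 3 of 9 fits that left out 1 library). In complex II they were 0.36 for SDHC and 0.14 for SDHB (kept in 7 of 9 such fits). In complex III they were 0.57 for CYC1, 0.35 for UQCRC2, 0.25 for UQCRC1 and -0.13 for UQCRH (kept in 7 of 9 such fits), and for CYCS the value was 0.41. In complex IV they were 0.47 for NDUFA4, 0.34 for COX7A2, 0.29 for COX7C, 0.24 for COX6B1, 0.10 for COX7B (lost in 4 of 9 fits that left out 1 library), -0.14 for COX4I1 and -0.16 for COX7A2L. In complex V they were 0.37 for ATP5B, 0.31 for ATP5G3, 0.31 for ATP5H, 0.30 for ATP5G1, 0.17 for ATP5L and -0.29 for ATP5G2.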

How the results depend on the processing

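No call of a member named by the rule turned direction under any alternative run. The members named later (NDUFA9, NDUFB9, NDUFB5, NDUFS1, NDUFB4 and COX5B) were not part of this check. With library size alone, 21 members rose on the mean of both shRNAs (12 with TMM) and 6 rose with sh68 (3 with TMM). With length and GC offsets, 33 fell on the mean (19 without). Against a minimum of 1.2-fold, the members higher and lower were 0 and 3 on the mean, 0 and 5 with sh68, 2 and 3 with sh72, and 13 and 0 for sh72 minus sh68 (edgeR, and each count of 0 is also 0 at an unadjusted p below 0.05), where 7.87% to 15.9% of all genes passed in each direction. With each library left out in turn, the members higher on the mean ranged from 7 (without shSCR replicate 2) to 19 (without sh72 replicate 3), those lower on the mean from 13 to 24, those higher with sh68 from 2 (without shSCR replicate 3) to 5 (without sh72 replicate 3), those lower with sh68 from 30 to 42, those higher with sh72 from 20 to 42, those lower with sh72 from 7 to 10, those higher in sh72 than in sh68 from 50 to 60, and those lower there from 4 (without sh68 replicate 2 or sh72 replicate 3) to 8. DESeq2, limma-voom, RLE scaling and no filter kept all of these counts within 1.5 times. Libraries with the same replicate number had residual correlations from -0.04 to 0.07, and those with other numbers from -0.08 to 0.06, so the numbers were not taken as pairs. With the replicate block, 42 members fell with sh68 and 32 rose with sh72. Leaving out 1 library of 3 assumes that the others of its group vary like the rest.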
